A study of Mus musculus with 12 samples.

Results

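The corticotropin-releasing hormone system is described here through 4 genes: Crh, which encodes the hormone, Crhbp, which encodes its binding protein, and Crhr1 and Crhr2, which encode its receptors. They were taken by gene name from the 55678 gene names of the deposited table, and all 4 were measured in all 12 libraries. Each library is RNA from the medial prefrontal cortex of 1 mouse, and expression is given in TPM, a transcript abundance corrected for length and scaled to 1000000 per library. The mice were 9 to 10 weeks old and belonged to 4 groups of 3. B6 control mice (C57BL/6JmsSlc, animals 2, 3 and 9) and BALB/c control mice (BALB/cCrSlc, animals 5, 9 and 10) were handled without restraint. B6 CRS mice (animals 12, 13 and 14) and BALB/c CRS mice (animals 12, 13 and 15) underwent chronic restraint stress (CRS), 6 h per day for 21 days, in restrainers in the home cage. All mice went through behavioural testing before a 1.5 mm punch of cortex was taken, so the controls share that testing. Both strains are inbred, and the labels give neither sex nor litter.

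Corticotropin-releasing hormone is a peptide best known as the hypothalamic signal that starts the hormonal stress response by driving release of corticotropin from the pituitary. Outside the hypothalamus it also acts locally: in the mouse neocortex Crh is made by inhibitory interneurons, many of which also make vasoactive intestinal peptide, and the peptide acts on nearby neurons through the receptor encoded by Crhr1, which couples to the stimulatory G protein and raises cAMP. The binding protein captures free peptide and limits its action, and the receptor encoded by Crhr2 binds the related urocortins with high affinity and is much less abundant in neocortex than in the lateral septum and parts of the hypothalamus.

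In the GENCODE M21 annotation of GRCm38, Crh lies on chromosome 3 (19693401 to 19695396, minus strand) with at most 2 exons, and Crhbp on chromosome 13 (95431371 to 95444924, minus strand) with at most 7 exons. Crhr1 lies on chromosome 11 (104132855 to 104175523, plus strand) and Crhr2 on chromosome 6 (55090049 to 55133016, minus strand), each with at most 13 exons. None of the 4 genes overlaps another annotated gene on either strand. The table held 1 row for Crh, 2 for Crhbp, 1 for Crhr1 and 9 for Crhr2, the same numbers as the transcripts in M21, and the rows carry only the gene name. RefSeq promoter windows (GRCm38.p6) were found for 3 of the 4 genes. The 250 bases before the start site are printed for the receptors, because these windows hold no annotated exon of their gene. The third window, that of Crhbp, overlaps an exon of its gene and is not printed. The only capitals mark a TATA box, the letters TATAAA searched on both strands.

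Crhr1, chr11:104132531-104132780, plus strand: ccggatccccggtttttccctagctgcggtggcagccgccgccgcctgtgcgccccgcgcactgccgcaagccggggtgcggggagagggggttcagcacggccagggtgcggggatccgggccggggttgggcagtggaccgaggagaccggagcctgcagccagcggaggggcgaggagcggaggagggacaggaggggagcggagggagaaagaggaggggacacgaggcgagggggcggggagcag
Crhr2, chr6:55133017-55133266, minus strand: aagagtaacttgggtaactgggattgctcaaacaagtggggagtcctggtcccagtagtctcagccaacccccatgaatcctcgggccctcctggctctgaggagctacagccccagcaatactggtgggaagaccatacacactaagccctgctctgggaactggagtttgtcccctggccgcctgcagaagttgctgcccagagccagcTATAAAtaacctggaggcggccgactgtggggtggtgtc

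The Crhr1 window is 74.8% G and C and the Crhr2 window 57.6%, against a median of 52.4% over 32851 windows of the same length. The TATA box of Crhr2 begins 39 bases before the start, and 12.4% of all windows hold these letters on either strand. The cAMP response element TGACGTCA, present in 1.55% of windows, and the palindromic glucocorticoid response element, present in 0.00913%, were found in neither receptor window. These are the letters of the reference genome, which is that of a B6 strain, and BALB/c sequence was not analysed here.

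The libraries differed in markers of striatal neurons and of myelin. The striatal values are given again beside several of the results, and the myelin values beside Crhr1. A list of 10 striatal neuron markers summed to 211 to 2830 TPM in B6 controls, 896 to 2321 TPM in B6 CRS, 114 to 374 TPM in BALB/c controls and 134 to 184 TPM in BALB/c CRS. The opioid peptide precursor Penk ranged from 27.6 to 1182 TPM. The cortical glutamate transporter gene Slc17a7 was present throughout, at 390 to 1074 TPM, and a list of 8 excitatory neuron markers summed to 528 to 1374 TPM. A list of 7 myelin markers summed to 2413 to 9270 TPM in B6 controls, 2648 to 7513 TPM in B6 CRS, 463 to 2960 TPM in BALB/c controls and 523 to 1402 TPM in BALB/c CRS. No marker of these 3 lists was at 0 in all libraries. In bulk tissue, fewer cells of a type and less RNA per cell cannot be told apart. 18S ribosomal RNA made up 3.97% of TPM in BALB/c CRS animal 12 and 0.0307% to 0.169% in the other libraries.

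The 4 genes kept a nearly fixed order of abundance. Crhbp was the most abundant, with a median of 19.98 TPM (range 15.0 to 27.5), followed by Crhr1 with 9.14 TPM (4.80 to 15.6), Crh with 4.096 TPM (2.13 to 5.65) and Crhr2 with 0.947 TPM (0.430 to 3.32). Crhbp exceeded Crhr1 in 12 of 12 libraries, by 1.31 to 4.07 times. Crhr1 exceeded Crh in 12 of 12, by 1.38 to 3.50 times, and Crh exceeded Crhr2 in 11 of 12, the exception being B6 CRS animal 12. The coefficient of variation over the 12 libraries was 18.2% for Crhbp, 30.9% for Crh, 40.6% for Crhr1 and 67.9% for Crhr2. Within groups, the standard deviation of log2(TPM + 1) was 0.27 for Crh, 0.28 for Crhbp, 0.43 for Crhr1 and 0.46 for Crhr2, against a median of 0.21 over all genes tested, so the receptors were the more variable members.

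**Figure D1:**
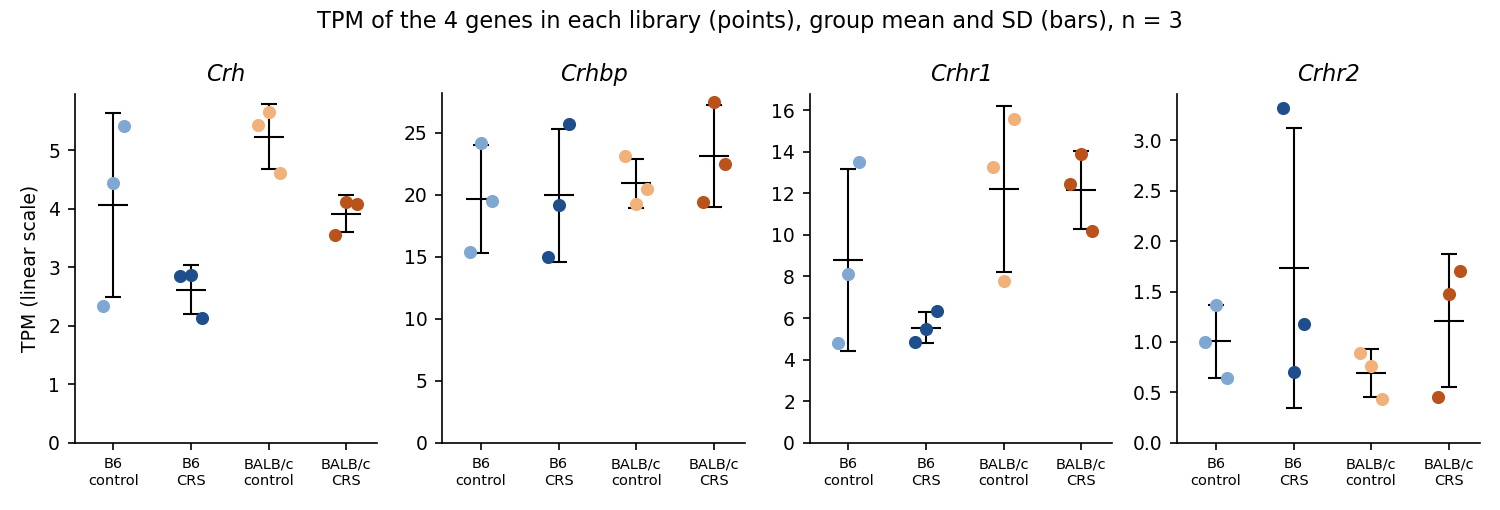
TPM of Crh, Crhbp, Crhr1 and Crhr2 on linear axes that start at 0, with 1 point per library and bars for the group mean and SD (n = 3). Crh is lower in the BALB/c CRS libraries than in all BALB/c controls, Crhr1 is higher in all BALB/c CRS than in all B6 CRS libraries, and Crhbp overlaps in every comparison.

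Each gene was tested for the effect of CRS in each strain and averaged over strains, for the difference of these effects between strains (interaction), and for the difference between strains in controls and under CRS. The tests came from a single limma fit to 16423 genes on the log2(TPM + 1) scale, with p-values adjusted over all of them. No member passed an adjusted p-value of 0.05 in any of the 6 contrasts. The share of all genes that passed was 0% for CRS in B6, 0.00609% for CRS in BALB/c, 0.00609% for the averaged effect, 0% for the interaction, 4.73% between strains in controls and 7.7% between strains under CRS. An unadjusted p-value under 0.05 was reached by 1 of 4 members for the averaged CRS effect (Crh; 5.17% of all genes) and by 1 of 4 between strains under CRS (Crhr1; 23.8% of all genes). It was reached by 0 of 4 in the other contrasts, against 4.82% of all genes for CRS in B6, 3.03% for CRS in BALB/c, 2.7% for the interaction and 18.7% between strains in controls. Groups that did not overlap were found for 0 of 4 members for CRS in B6 (8.33% of all genes), 1 of 4 for CRS in BALB/c (7.39%), 0 of 4 between strains in controls (22.9%) and 2 of 4 between strains under CRS (29.3%).

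**Figure D2:**
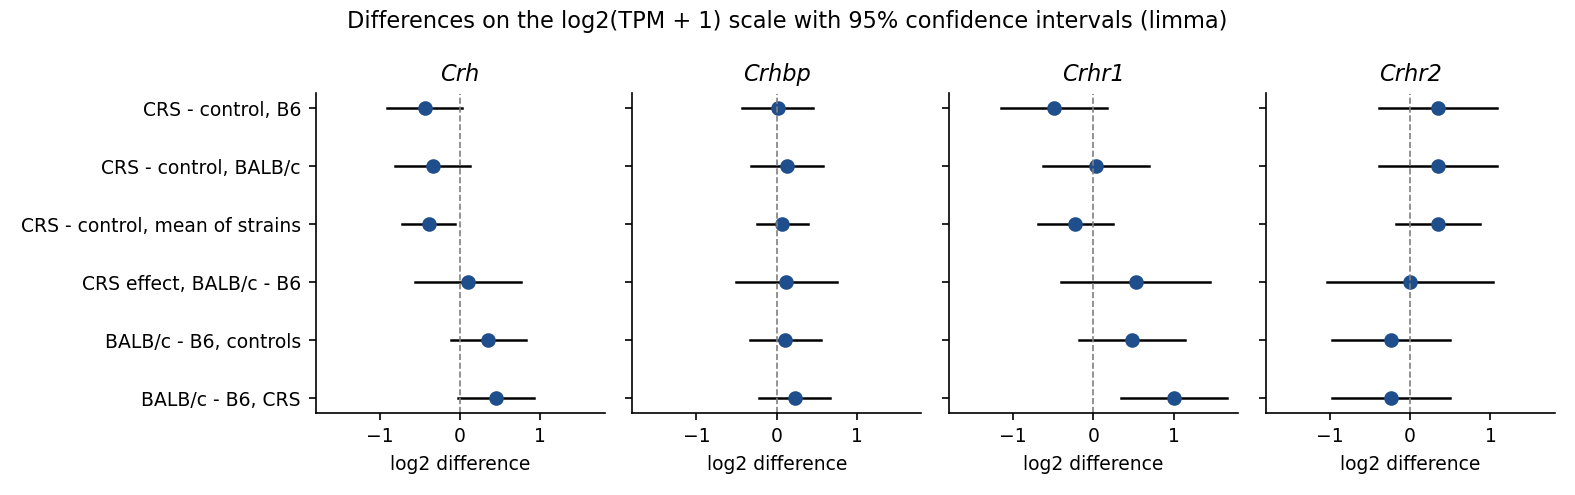
Log2 differences of the 4 genes in 6 contrasts, on the log2(TPM + 1) scale, with 95% confidence intervals from limma (bars). The interval of Crhr1 between strains under CRS runs from 0.35 to 1.66 and that of Crh for the averaged CRS effect from -0.72 to -0.059; the other intervals shown contain 0.

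Crh, the hormone gene, had lower values after restraint in both strains, but the difference was not significant once all genes were considered. In B6 controls it was at 2.33, 4.44 and 5.41 TPM in animals 2, 3 and 9, and after CRS at 2.85, 2.87 and 2.13 TPM in animals 12, 13 and 14. The groups overlap through control animal 2, whose Crh lies among the CRS values and whose striatal markers were the highest of all libraries. Control animals 9 and 3, with the highest Crh, had the lowest striatal sums of the B6 libraries (211 and 438 TPM). CRS animals 14, 13 and 12 and control animal 2 had striatal sums of 896, 1714, 2321 and 2830 TPM. Apart from control animal 2, restraint and striatal content therefore cannot be told apart for Crh in B6. The means were 4.06 ± 1.58 and 2.62 ± 0.424 TPM (SD, n = 3 each), a ratio of 0.644. The log2 difference was -0.44 (SE 0.21, 95% interval -0.91 to 0.029, adjusted p 1, limma). Without control animal 2 it was -0.72 (adjusted p 0.161, limma), and without control animal 9 it was -0.24 (adjusted p 1, limma).

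In BALB/c controls Crh was at 5.44, 5.65 and 4.61 TPM in animals 5, 9 and 10, and after CRS at 3.56, 4.11 and 4.08 TPM in animals 12, 13 and 15. All 3 CRS libraries lay below all 3 controls. Over all genes, 2.02% were lower after CRS in BALB/c without overlap. The means were 5.23 ± 0.552 and 3.92 ± 0.311 TPM (SD, n = 3 each), a ratio of 0.748, and the log2 difference was -0.34 (SE 0.21, 95% interval -0.81 to 0.13, adjusted p 1, limma). A list of 5 markers of the meninges, none at 0 throughout, was also apart in BALB/c. It summed to 9.43 to 15.2 TPM in BALB/c controls and 21.1 to 33.2 TPM in BALB/c CRS, without overlap, and to 25.1 to 54.1 TPM in B6 controls and 30.7 to 40.6 TPM in B6 CRS. All 5 genes had higher values after CRS in BALB/c, with 0 of 5 passing the test (limma); the insulin-like growth factor gene Igf2 had the lowest p, with a log2 difference of 1.24 (adjusted p 1, limma). The part of meningeal tissue in the Crh values was not tested.

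Averaged over the strains, Crh differed by -0.39 (SE 0.15, 95% interval -0.72 to -0.059). The unadjusted p of 0.0248 ranked 408 among 16423 genes and the adjusted p was 0.946 (limma). The difference of the CRS effect between strains was 0.099 (95% interval -0.56 to 0.76, adjusted p 1.00, limma), an interval that leaves room for a larger effect in either strain. With the striatal marker score as a covariate, an alternative added after the data were seen, the averaged difference was -0.31 (adjusted p 0.835, limma), the BALB/c difference -0.39 and the B6 difference -0.23.

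Between strains, Crh was 1.29 times as high in BALB/c as in B6 controls (log2 difference 0.35, SE 0.21, adjusted p 0.426, limma), with overlapping groups. That log2 difference was 0.074 without B6 control animal 2 and 0.55 without B6 control animal 9. Under CRS it was 1.50 times as high (0.45, SE 0.21, 95% interval -0.021 to 0.92, adjusted p 0.231, limma), and all BALB/c libraries lay above all B6 libraries, as they did for 9.29% of genes. With the striatal score as a covariate the difference under CRS changed sign, to -0.061 (adjusted p 0.959, limma).

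The gene of vasoactive intestinal peptide, Vip, had 42.6, 33.5 and 49.3 TPM in BALB/c controls against 40.2, 49.2 and 47.9 TPM after CRS. The 6 markers of the interneurons that make it, none at 0 throughout, summed to 64.1 to 94.4 TPM in BALB/c controls and 88.0 to 105 TPM under CRS, and to 57.5 to 89.3 TPM and 53.3 to 101 TPM in B6. A list of 6 general interneuron markers, among them the GABA synthesis genes Gad1 and Gad2, summed to 238 to 367 TPM in B6 controls, 315 to 546 TPM in B6 CRS, 198 to 233 TPM in BALB/c controls and 182 to 312 TPM in BALB/c CRS. In B6, 5 of the 6 had higher values after CRS and 1, Lhx6, lower (mean 11.4 TPM in controls and 9.46 TPM in CRS). The B6 sums were lowest in controls 9 and 3 (238 and 270 TPM), the B6 libraries with the least striatal signal. The part of striatal tissue in this sum was not tested. Sst, the gene of somatostatin, was at 404 to 692 TPM over all libraries with log2 differences after CRS of 0.069 in B6 and 0.030 in BALB/c (adjusted p 1 for each, limma). Pvalb, which marks another interneuron class, was lower in all BALB/c CRS libraries (29.2, 29.7 and 21.5 TPM) than in all BALB/c controls (46.4, 38.7 and 32.3 TPM), which gave -0.53 on the log2 scale (adjusted p 1, limma). Over all genes, 2.02% were lower in this way. The 5 markers of that class overlapped in sum, at 110 to 145 TPM in BALB/c controls and 99.4 to 119 TPM under CRS. Of these, 4 had lower values after CRS in BALB/c and 1, Lhx6, higher (mean 9.68 and 11.6 TPM). The part of these cells in the Crh values was not tested. Of the 6 markers of the Vip list, Crispld2 was higher in all BALB/c CRS libraries (0.664 to 1.18 TPM) than in all BALB/c controls (0.358 to 0.491 TPM), a gene named after its values were seen. It did not pass the filter on low values and was not tested. Among the genes tested, 7.39% did not overlap between these groups in either direction.

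The other ligands of the family were at the edge of detection. Ucn, which encodes urocortin, was above 0 in 4 of 12 libraries and at most 0.904 TPM, in B6 control animal 9. Ucn2 was above 0 in 3 libraries, at most 0.178 TPM, and Ucn3 in 1 library, at 0.103 TPM. None of the 3 passed the filter on low values, so none was tested, and Crh was the only ligand gene of the family above 1 TPM in these libraries.

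Crhbp, the binding protein gene, had the lowest coefficient of variation over the 12 libraries, although within groups its spread on the log2 scale was about that of Crh. Its values were 15.4, 24.2 and 19.5 TPM in B6 controls, and 15.0, 19.2 and 25.7 TPM in B6 CRS. In BALB/c it was at 23.1, 19.3 and 20.5 TPM in controls and at 19.4, 27.5 and 22.5 TPM under CRS. The groups overlapped in every comparison, and BALB/c controls had the narrowest spread. The lowest Crhbp values, 15.0 TPM in B6 CRS animal 12 and 15.4 TPM in B6 control animal 2, came with the highest striatal sums (2321 and 2830 TPM). The other B6 libraries did not keep an opposite order, with the highest Crhbp in CRS animal 14 at a striatal sum of 896 TPM.

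The log2 difference of Crhbp after CRS was 0.011 in B6 (95% interval -0.43 to 0.45) and 0.13 in BALB/c (-0.32 to 0.57). Between strains it was 0.10 in controls (-0.34 to 0.55) and 0.22 under CRS (-0.22 to 0.66). All adjusted p-values were 0.564 or more (limma), and the intervals allow changes of a size comparable to those seen for Crh. With the striatal score as a covariate, added after the data were seen, the Crhbp difference between strains changed sign in controls and under CRS. The first of its 2 rows carried 95.9% of its TPM over all libraries, and the second was above 0 in 10 of 12 libraries and at most 1.77 TPM.

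Since the binding protein limits free hormone, the TPM of Crhbp per TPM of Crh was set out for each library, as a description with no test. In B6 it was 6.61, 5.44 and 3.60 in controls (animals 2, 3 and 9) and 5.27, 6.69 and 12.1 under CRS (animals 12, 13 and 14). In BALB/c it was 4.25, 3.41 and 4.44 in controls (animals 5, 9 and 10) and 5.46, 6.70 and 5.52 under CRS (animals 12, 13 and 15). Every BALB/c CRS library lay above every BALB/c control, and the B6 groups overlapped. The BALB/c groups were already apart for Crh alone, and no share over other pairs of genes was computed. The mean difference of log2(Crhbp + 1) minus log2(Crh + 1) after CRS was 0.45 in B6 and 0.47 in BALB/c, against a pooled standard deviation within groups of 0.34. The B6 value was 0.16 without B6 CRS animal 14, 0.26 without B6 control animal 9 and 0.68 without B6 CRS animal 12. On the same scale Crh differed after CRS by -0.44 in B6 and -0.34 in BALB/c, and Crhbp by 0.011 and 0.13. Most of the ratio difference was thus that of Crh. The limit given for Crh in B6, that restraint and striatal content cannot be told apart, applies to the ratio too.

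**Figure D3:**
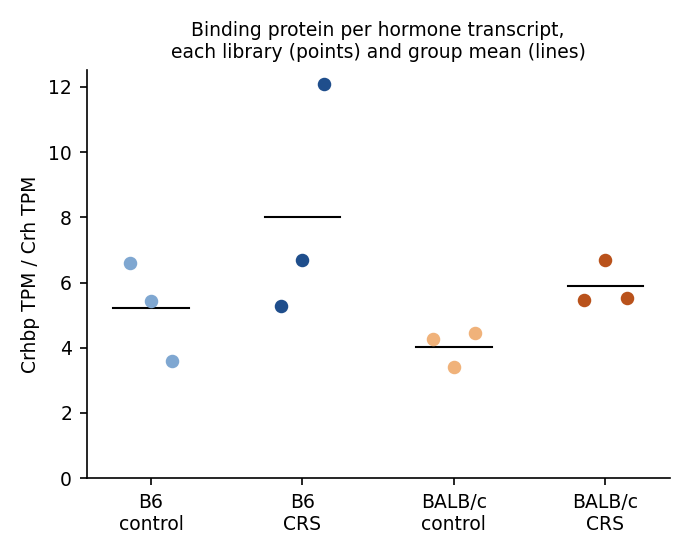
Crhbp TPM divided by Crh TPM in each library (points) and group mean (lines), on an axis that starts at 0. The BALB/c CRS libraries (5.46 to 6.70) lie above the BALB/c controls (3.41 to 4.44), and B6 CRS animal 14 is the highest at 12.1.

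Crhr1, the receptor with high affinity for the hormone, had the largest difference between groups of the 4 genes. Its values were 4.80, 8.12 and 13.5 TPM in B6 controls (animals 2, 3 and 9) against 4.83, 5.47 and 6.32 TPM in B6 CRS (animals 12, 13 and 14). In BALB/c it was at 13.2, 7.80 and 15.6 TPM in controls (animals 5, 9 and 10) and at 12.5, 13.9 and 10.2 TPM under CRS (animals 12, 13 and 15). Under CRS every BALB/c library lay above every B6 library, while in controls the strains overlapped.

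Under CRS Crhr1 averaged 12.2 ± 1.88 TPM in BALB/c and 5.54 ± 0.743 TPM in B6 (SD, n = 3 each), a ratio of 2.20. The log2 difference was 1.01 (SE 0.30, 95% interval 0.35 to 1.66), with an unadjusted p of 0.00601 and an adjusted p of 0.0638 (limma). This ranked 1546 among 16423 genes, of which 7.7% passed in the same contrast and 9.29% were higher in BALB/c without overlap. The adjusted p was 0.0448 with median-of-ratios scaling (limma). It was 0.0242 without B6 control animal 2, 0.0225 without B6 control animal 9 and 0.0487 without BALB/c control animal 9 (limma). None of these libraries enters the difference, which stayed at 1.01, while its SE was 0.24, 0.24 and 0.27. Over the alternatives other than the covariate described next, the adjusted p ran from 0.0225 to 0.187 (limma). In controls the difference was 0.48 (SE 0.30, 95% interval -0.18 to 1.14, adjusted p 0.438, limma). It was 0.15 without B6 control animal 2, 0.81 without B6 control animal 9, 0.75 without BALB/c control animal 9 and 0.29 without BALB/c control animal 10. Over all genes the median strain difference in controls was -0.10, and 0.0092 after median-of-ratios scaling, under which the Crhr1 difference in controls was 0.60 (adjusted p 0.299, limma).

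Restraint gave no significant difference in Crhr1. In B6 the log2 difference was -0.49 (SE 0.30, 95% interval -1.15 to 0.17, adjusted p 1, limma), and in BALB/c it was 0.035 (-0.62 to 0.69, adjusted p 1, limma). The difference between these effects was 0.53 (SE 0.43, 95% interval -0.40 to 1.46, adjusted p 1.00, limma). Without B6 control animal 2 the B6 difference was -0.82 and the difference between effects 0.85. Without B6 control animal 9 they were -0.16 and 0.19, and without BALB/c control animal 9 the difference between effects was 0.26.

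The level of Crhr1 ran largely opposite to that of the striatal markers. Ordered by the summed striatal level, the B6 libraries at 211, 438, 896, 1714, 2321 and 2830 TPM had Crhr1 at 13.5, 8.12, 6.32, 5.47, 4.83 and 4.80 TPM, an exactly opposite order that mixes controls and CRS animals. The BALB/c libraries at 114, 134, 138, 173, 184 and 374 TPM had Crhr1 at 15.6, 12.5, 13.9, 13.2, 10.2 and 7.80 TPM, with the lowest Crhr1 in the library with most striatal signal. All 10 striatal genes were lower in BALB/c than in B6 under CRS, 9 of them at an adjusted p under 0.05 (limma), with a median log2 difference of -3.15. With the striatal score as a covariate, added after the data were seen, the Crhr1 difference between strains was -0.15 under CRS (SE 0.24, adjusted p 0.849, limma) and -0.080 in controls (SE 0.17, adjusted p 0.845, limma), and the B6 difference after CRS was -0.016. Since the 3 B6 CRS libraries all exceed the 3 BALB/c CRS libraries in striatal level, strain and striatal content cannot be told apart within the CRS groups. The same holds for myelin, whose markers summed to 2648 to 7513 TPM in B6 CRS and 523 to 1402 TPM in BALB/c CRS. In each strain the library with the highest myelin sum had the lowest Crhr1, and that with the lowest sum the highest. In BALB/c these were control animals 9 (2960 TPM) and 10 (463 TPM), and in B6 control animals 2 (9270 TPM) and 9 (2413 TPM). The libraries between them did not keep that order, and the part of myelin was not tested.

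**Figure D4:**
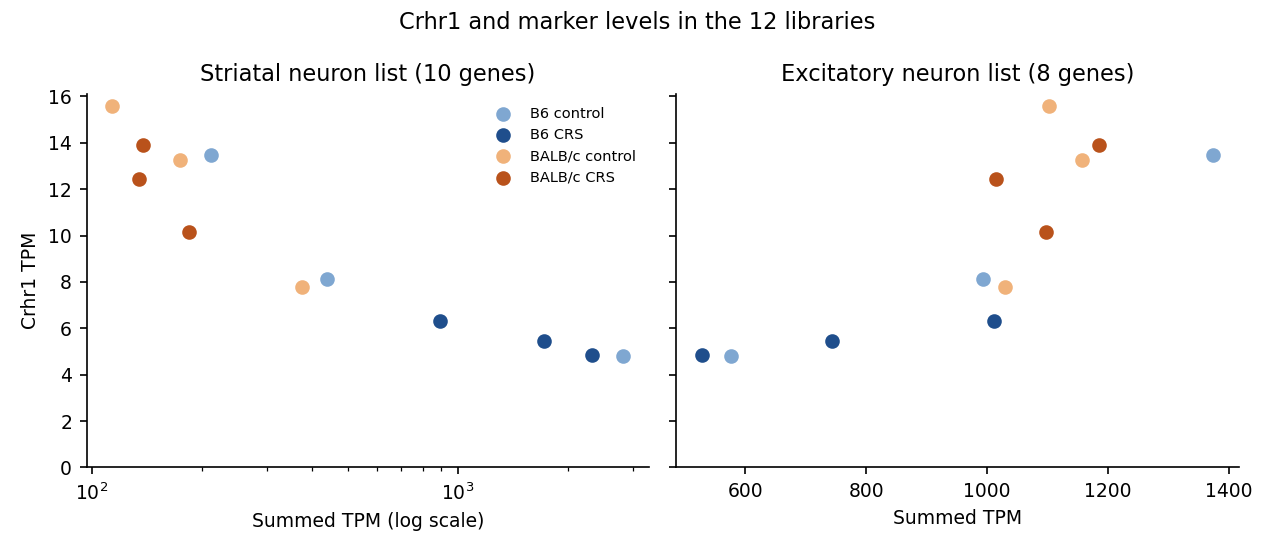
Crhr1 TPM in the 12 libraries against the summed TPM of the striatal list (left, logarithmic axis) and of the excitatory neuron list (right, linear axis), coloured by group. Crhr1 is lowest, at 4.80 to 6.32 TPM, in the 4 libraries whose striatal sum is 896 TPM or more.

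Relative to the excitatory neuron markers the strain difference in Crhr1 was smaller. Slc17a7 made up most of the summed TPM of these markers in every library, for example 854 of 1011 TPM in B6 CRS animal 14. Under CRS 7 of the 8 markers had higher values in BALB/c than in B6, and 1, Foxp2, lower (mean 3.36 and 9.61 TPM). Per 1000 TPM of the 8 markers, Crhr1 came to 8.33, 8.17 and 9.82 TPM in B6 controls (animals 2, 3 and 9) against 9.16, 7.36 and 6.25 TPM in B6 CRS (animals 12, 13 and 14). In BALB/c it was at 11.5, 7.57 and 14.1 TPM in controls (animals 5, 9 and 10) and at 12.3, 11.7 and 9.27 TPM under CRS (animals 12, 13 and 15). Under CRS the strains still did not overlap on this scale, although the lowest BALB/c and the highest B6 library were close (9.27 and 9.16). In plain TPM, 29.3% of all genes did not overlap between the strains under CRS, in either direction. The measure relative to these markers was chosen after the data were seen and was not tested.

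Crhr2, the receptor that binds urocortins with high affinity, was low and uneven. Its values were 1.00, 1.37 and 0.646 TPM in B6 controls, 3.32, 0.704 and 1.18 TPM in B6 CRS (animals 12, 13 and 14), 0.893, 0.764 and 0.430 TPM in BALB/c controls, and 0.456, 1.48 and 1.70 TPM in BALB/c CRS. The groups overlapped in every comparison, and B6 CRS animal 12 stood above the other 11 libraries.

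The group means of Crhr2 were 1.72 times as high after CRS in B6 and 1.74 times in BALB/c. The log2 differences were 0.35 (95% interval -0.39 to 1.08) and 0.34 (-0.39 to 1.08), with an adjusted p of 1 for each (limma). Without B6 CRS animal 12 the B6 difference was -0.042 (limma). Between strains the differences were -0.24 in controls and -0.24 under CRS, with adjusted p-values of 0.769 and 0.722 (limma).

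The high value of B6 CRS animal 12 was spread over several of the 9 Crhr2 rows. The row with most TPM, which carried 46.8% of Crhr2 over all libraries, was at 1.73 TPM in that library and at 0.147 to 0.768 TPM in the others. It was the only row above 0 in all 12 libraries, and 2 of the 9 rows were at 0 throughout. The same library had the highest sum of 7 hypothalamic markers, 10.1 TPM against 0.746 to 3.66 TPM in the others, with the oxytocin gene Oxt at 5.55 TPM against at most 0.523 TPM and the vasopressin gene Avp at 2.05 TPM against at most 1.03 TPM. The transcription factor gene Sim1, which marks the paraventricular nucleus, was at 0.0099 TPM there and at 0 elsewhere. Ghrh, which encodes growth hormone-releasing hormone, was also highest there (2.05 TPM), whereas Pmch had its lowest value of all libraries (0.137 TPM) and Hcrt (0.200 TPM) and Agrp (0.141 TPM) lay within the range of the others. The 5 choroid plexus markers were mixed there: Folr1 (4.50 TPM, at most 2.14 TPM elsewhere) and Clic6 (7.33 TPM, at most 3.29 TPM elsewhere) were the highest of the 12 libraries, Slc4a5 was at 0, and Ttr (6.87 TPM) and Kl (1.54 TPM) lay within the range of the others. The part of hypothalamic and choroid plexus tissue in the Crhr2 value was not tested.

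**Figure D5:**
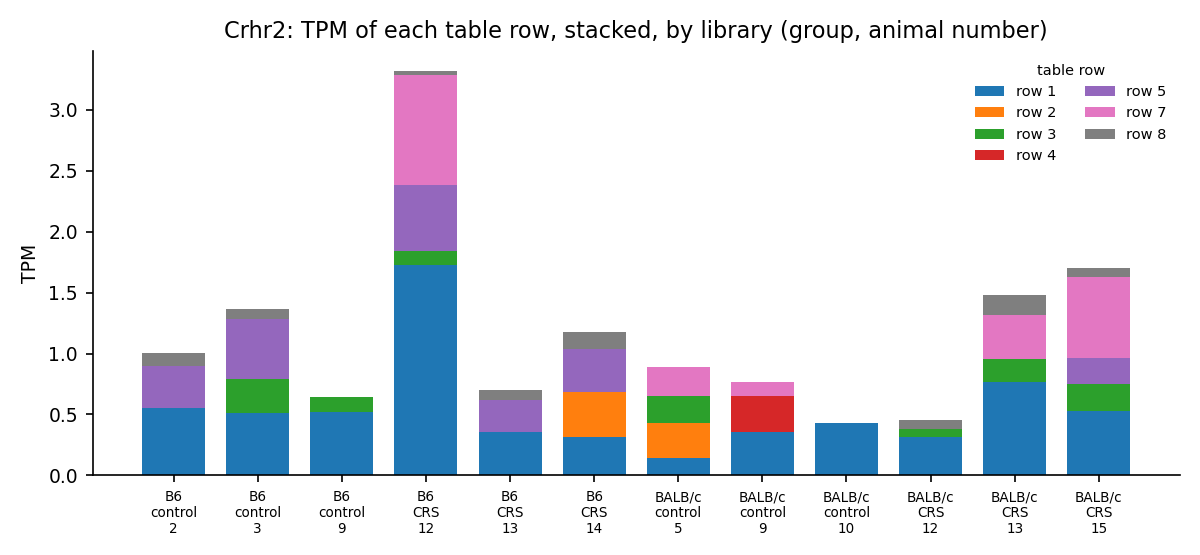
TPM of each Crhr2 row of the table, stacked, for the 12 libraries (group and animal number). B6 CRS animal 12 reaches 3.32 TPM in all and is highest in rows 1, 5 and 7.

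Downstream of the receptors, a list of 38 genes of G protein coupling, cAMP synthesis and breakdown, protein kinase A, CREB and receptor desensitisation was measured in full, all 38 passing the filter. No gene of the list passed for CRS in B6, CRS in BALB/c, the averaged CRS effect, the interaction or the strains in controls (limma). Its median log2 difference was -0.036 for CRS in B6 and 0.054 for CRS in BALB/c, against 0 and 0.045 over all genes. Between strains under CRS, 2 of 38 passed, both lower in BALB/c, where 5.33% of all genes passed in that direction.

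The called genes of this list were Gnal, which encodes the alpha subunit of the olfactory type stimulatory G protein, and Adcy5, which encodes an adenylyl cyclase; both are abundant in striatal neurons. Gnal had 166, 113 and 130 TPM in B6 CRS against 51.1, 68.8 and 76.5 TPM in BALB/c CRS, which is -1.05 on the log2 scale (SE 0.26, adjusted p 0.0307, limma). Adcy5 had 149, 109 and 90.1 TPM in B6 CRS against 30.4, 41.4 and 44.2 TPM in BALB/c CRS, a difference of -1.55 (SE 0.39, adjusted p 0.0345, limma). Neither pair of groups overlapped, as was so for 29.3% of all genes between strains under CRS, in either direction. B6 control animal 2, with the highest striatal sum, had 145 TPM of Gnal and 169 TPM of Adcy5. The part of striatal tissue in these differences was not tested.

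Among the genes of the list that did not pass, Rapgef4, which encodes a cAMP-activated exchange factor, had the lowest p among those lower after CRS in the averaged contrast, at -0.49 on the log2 scale (SE 0.16, adjusted p 0.946, limma), and in BALB/c, with -0.54 (adjusted p 1, limma). Rapgef3, a relative, had the lowest p among those higher in the averaged contrast, 0.32 (adjusted p 0.946, limma). In B6 these places were held by Gnal (0.60) and by Crem (-0.26), which encodes a cAMP-responsive transcription factor, with an adjusted p of 1 for each (limma). Adcy6, another adenylyl cyclase gene, was the higher gene of lowest p in BALB/c after CRS (0.39), for the interaction (0.71) and between strains under CRS (0.58, adjusted p 0.105, limma). For the interaction the lower gene of lowest p was Gnal (-0.60), and in controls Grk5, a receptor kinase gene, was higher (0.50) and Rapgef4 lower (-0.65) in BALB/c with adjusted p-values of 0.212 and 0.128 (limma).

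The genes whose pattern was most like each member were sought by Pearson correlation of deviations from the 4 group means over 12 libraries, among about 10490 candidates with a mean of at least 5 TPM. The libraries share tissue content, and the values are the highest of many, so they are given as a description. For Crh the leading genes were Ankrd44, Rwdd2a and Grm8 (r of 0.94 for each; without the 2 libraries farthest from the median, 0.92, 0.80 and 0.83). For Crhbp they were Hspa1a (0.96), Tex264 (0.95) and Phf20 (0.95). For Crhr1 they were Kcnj16, Epop and Car10 (0.96 for each), and for Crhr2 they were Tmem255a, Inafm2 and Rbm12 (0.92 for each). Among the members themselves the deviations of Crh and Crhr1 had an r of 0.50, those of Crhbp and Crhr1 0.47, those of Crh and Crhbp 0.25, and those of Crhr1 and Crhr2 -0.32.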

How the data were processed

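Medial prefrontal RNA of 12 mice was sequenced from stranded mRNA libraries as paired 150 bp reads, about 6 Gb per library, per the labels' protocols. The authors deposited TPM values, in 147902 rows that each carry a gene name. The unit was read from the values, which sum to 1000000 in every column. The submitters' processing notes name cutadapt 2.9, Salmon and GRCm38; the annotation and strand setting are not given in the sources used here. TPM keeps no depth, so counting error is unknown and cannot be separated from other differences between libraries. The errors come from the spread of libraries within groups, pooled over the 4 groups and moderated across genes by limma. Reads of BALB/c mice may map less well to a B6 reference, and this was not tested.

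Rows were summed per gene name. The 16423 genes that reached 1 TPM in 3 or more libraries were fitted on log2(TPM + 1) with 4 group means in limma 3.58.1 under R 4.3.3 (lmFit, contrasts.fit, eBayes with trend, 8 residual degrees of freedom), with Benjamini-Hochberg adjustment over all genes and a threshold of 0.05. Fold changes on this scale understate those of low genes. On simulated data with 200 of 16423 genes changed for CRS in B6, 69 of 100 genes with a log2 change of 1 and 98 of 100 with a change of 2 were recovered. Where fewer genes change, the adjustment is stricter, so these rates do not carry over to the members in the stress contrasts. Members and lists were chosen with earlier results of these data known. Named genes are the members, the other ligands, the called genes of the signalling list with the largest changes or else those of lowest p, the 3 genes most alike to each member (no Gm, Rik or -ps symbols), and fixed markers; other markers were named after their values were seen. A permutation test of the Crhbp to Crh ratio had been planned and is not given, since both genes belong to a group chosen with results known. Promoter windows are from RefSeq (GRCm38.p6) and gene positions from GENCODE M21. Alternatives were the pseudocount, the filter, the scaling, the trend, the replicate block, the highest row per gene, each library left out, and a striatal score covariate.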

Additional observations from a re-analysis of the deposited data

How the results depend on the processing

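The 24 differences of the members were recomputed under 20 alternatives, where the member passed the filter: Crh and Crhr2 fell below a mean of 5 TPM, and Crhr2 was not tested from its highest row alone. Of 462 values, 424 kept direction and side of the threshold, 4 passed it (all Crhr1 between strains under CRS, 1.06 with median-of-ratios scaling and the 3 libraries named with that result) and 34 changed sign, with 0 of them significant; the cause was not tested.

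With the striatal score as a covariate (a model with 1 more term), the interaction became -0.16 for Crh, -0.12 for Crhbp, -0.072 for Crhr1 and 0.19 for Crhr2. The strain difference under CRS became -0.061 for Crh, -0.23 for Crhbp, -0.15 for Crhr1 and 0.13 for Crhr2. In controls it became -0.12 for Crhbp and -0.080 for Crhr1, and the CRS effect in BALB/c became -0.088 for Crhr1. Other reversals were the Crhr2 interaction with a pseudocount of 0.1 (0.087), the CRS effect of Crhr1 in BALB/c with median-of-ratios scaling (-0.020) and that of Crhbp in B6 from the highest row (-0.061).

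Leaving out 1 library gave ranges of -0.18 to 0.19 for Crhbp after CRS in B6, -0.026 to 0.16 for its average, -0.062 to 0.31 for its interaction and -0.053 to 0.26 for strain in controls. They were -0.23 to 0.22 for Crhr1 after CRS in BALB/c, 0.91 to 1.12 for Crhr1 between strains under CRS, -0.098 to 0.37 for the Crh interaction, -0.042 to 0.63 for Crhr2 after CRS in B6, -0.28 to 0.39 for its interaction and -0.52 to 0.15 for strain under CRS. For the Crhbp to Crh ratio they were 0.16 to 0.68 for CRS in B6, 0.36 to 0.53 in BALB/c, 0.31 to 0.57 for the average, -0.21 to 0.31 for the interaction, -0.44 to -0.13 for strain in controls and -0.45 to 0.064 under CRS, so that the interaction and the strain difference under CRS changed sign.

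Counts of called genes over the whole table were 0 for CRS in B6, 1 for CRS in BALB/c, 1 for the average, 0 for the interaction, 777 for strain in controls (224 higher and 553 lower in BALB/c; 344 and 389 with median-of-ratios scaling) and 1264 under CRS (389 and 875; 642 and 749 with that scaling). For CRS in B6 they were 2 with a pseudocount of 0.1, 7 without the filter, 1 from a mean of 5 TPM and 1 with the replicate block. For CRS in BALB/c they were 0 with a pseudocount of 0.1, without the filter, from a mean of 5 TPM, with median-of-ratios scaling and with the replicate block, 3 from the highest row and 2 with the covariate. The averaged effect had 2 without the filter, from a mean of 5 TPM and with median-of-ratios scaling. The interaction had 2 without the filter and 1 with the covariate. Strain in controls had 437 from a mean of 5 TPM, and strain under CRS had 702 from that filter, 750 with the replicate block and 236 with the covariate. Leaving out 1 library gave 0 to 2 in each stress contrast and the interaction, 428 to 1389 for strain in controls and 539 to 1852 under CRS.

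The animal numbers 9, 12 and 13 occur in both strains for different mice. Deviations of same-numbered libraries had correlations of -0.24, -0.029 and -0.036, and 0 of 6 libraries correlated best with their own number. The replicate block changed no call of a member; Crhr1 between strains under CRS had an adjusted p of 0.129 (limma).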
